A study of Drosophila melanogaster with 9 samples.

Results

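Transcript levels in stage 10 ovarian follicles of EcRts mutant Drosophila melanogaster females were compared with those in wild-type stage 10 follicles. The comparison rests on 6 of the 9 libraries of the series, 3 labelled as the stage 10 EcR mutant and 3 as wild-type stage 10. The other 3, from wild-type stage 8, entered the filter on low values, the scaling and the estimate of the spread, and are quoted beside some results. Each library was made from poly(A)-selected RNA of 100 follicles. The EcRts females were moved to a restrictive temperature 2 days after eclosion, and the growth protocol for the flies gives 25 °C. Which EcR alleles were combined and how warm the restrictive temperature was, the sources used here do not say. The strain entry reads Oregon R for mutant and wild type alike, and the age entry 6 to 14 days. Genotype and temperature therefore differed together and cannot be told apart in any result below. Nothing in the labels says whether replicates were separate groups of females or separate days, so the p-values refer only to the spread among these libraries, which may be technical.

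Ecdysone is the moulting steroid of insects. Its nuclear receptor, the product of EcR, pairs with usp (ultraspiracle) on DNA and switches on early genes such as Eip74EF, Eip75B and br, which in turn regulate later targets. In the ovary, follicle cells make the hormone, and the receptor's function is needed for follicles to pass through mid-oogenesis and for the follicle epithelium to build the eggshell. A stage 10 follicle is a germline cyst of nurse cells and an oocyte taking up yolk, wrapped in a columnar epithelium that secretes the vitelline membrane and is about to secrete the chorion. In bulk samples like these, fewer cells of a type and less RNA per cell cannot be told apart.

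The values are FPKM, fragments scaled by transcript length and library size. Upper confidence limits deposited with them imply a depth of 27.2 to 33.3 M fragments for EcRts and of 17.5 to 21.3 M for wild-type stage 10. Depth was higher in every EcRts library and cannot be told apart from genotype either. Between 7985 and 8095 genes reached 1 FPKM in an EcRts library, against 8041 to 8079 in a wild-type library. Across all 15602 listed genes, log2(FPKM + 1) correlated at 0.973 to 0.975 between EcRts libraries, at 0.977 to 0.981 between wild-type libraries and at 0.957 to 0.966 between an EcRts and a wild-type library. EcR itself had 21.2, 19.9 and 20.8 FPKM in EcRts follicles, against 20.3, 22.6 and 20.1 FPKM in wild-type follicles, a log2 change of −0.025 ± 0.054 (SE; limma, adjusted p = 0.731). The level of this transcript does not check the labels, since the lesion of a temperature-sensitive allele need not alter it.

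Of the 8238 genes tested, 3601 (43.7%) passed limma's test at an adjusted p under 0.05, 818 (9.93%) higher and 2783 (33.8%) lower in EcRts follicles. That imbalance depended on the scale. With the FPKM as deposited the median change of all genes was −0.12 on the log2 scale. Over nuclear protein-coding genes alone it was −0.13, with values from −0.16 for those under 5 FPKM to −0.12 for those of 500 FPKM and over. Ribosomal RNA genes had a median of 1.84 and noncoding genes of the scaffolds one of 1.29. After median-of-ratios scaling the median was 0.00, and 1609 genes (19.5%) were higher and 1538 (18.7%) lower. Quantile normalization gave 1575 (19.1%) higher and 1718 (20.9%) lower, with a median of −0.01. Scaling to the sum over protein-coding genes gave 2178 (26.4%) and 1042 (12.6%), with a median of 0.07, and scaling to genes outside the variable classes 1685 and 1169, with a median of 0.04. Higher genes thus made up 22.7% of the calls on FPKM left unscaled, and on those 4 alternative scales, in the same order, 51.1%, 47.8%, 67.6% and 59.0%. Of the 818 genes called higher, 793 (96.9%) were called higher on the deposited, median-of-ratios, quantile and protein-coding scales alike and 0 were called lower on any. Of the 2783 called lower, 1023 (36.8%) kept that call on these 4 scales and 1 was called higher on another. The deposited scale has the lowest median of the 4, so the others moved changes upward. Rises were thereby favoured to keep their calls, and the contrast does not show that rises were firmer than falls. Before any test, all 3 EcRts values lay above all 3 wild-type values for 14.1% of genes and below them for 43.2%.

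Gene-specific changes were therefore set apart from the broad shift by a stricter rule: at least 2-fold and an adjusted p under 0.05 in the same direction on each of these 4 scales, with 3 EcRts values that do not overlap the 3 wild-type values. By this rule 225 genes (2.73%) were higher and 176 (2.14%) lower in EcRts follicles. Among 7583 nuclear protein-coding genes the balance was the reverse: of 212 that met the rule, 56 were higher (0.738%) and the rest lower (2.06%). Protein-coding genes whose higher group averaged 5 FPKM or more numbered 34 higher and 122 lower, those of the mitochondrial genome included. Of these, 30 and 111 were called in the same direction in all 18 alternative fits. The median-of-ratios, quantile and protein-coding fits are among the 18 and were already required by the rule. Part of that agreement was thus set in advance. Gene-specific falls were spread over levels, from 5.00% of genes under 5 FPKM through 0.931% of those at 50 to 100 FPKM to 3.59% of those at 500 FPKM and over.

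**Figure D1:**
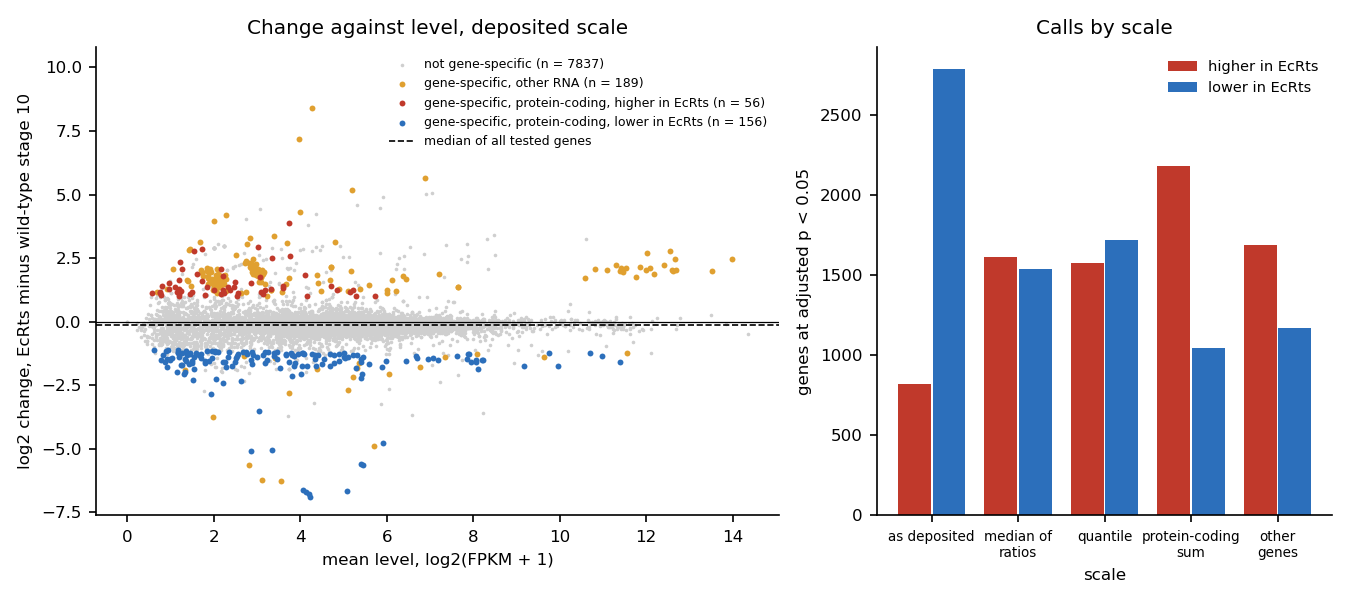
Left, log2 change of each tested gene (EcRts minus wild-type stage 10, deposited scale, y axis) against its mean level (log2(FPKM + 1), x axis), with genes that met the gene-specific rule in colour and the median of all genes, −0.12, as a dashed line. Right, number of genes called higher and lower in EcRts on each of 5 scales; the 2783 falls as deposited become 1042 with protein-coding scaling.

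The gene-specific rises were mostly not messenger RNAs. All 95 ribosomal RNA genes tested were copies of the 5S rRNA. Of these 91 met the rule as higher, and so did 30 of 57 noncoding genes located on heterochromatic or unplaced scaffolds, 27 of 212 small nucleolar RNAs and 7 of 28 small nuclear RNAs. With 3 tested 5S pseudogenes, all of which also met the rule as higher, there were 98 tested 5S copies, which summed to 1393, 704 and 989 FPKM in EcRts libraries, against 239, 224 and 165 FPKM in wild-type libraries. The groups do not overlap (EcRts values lay wholly above wild-type values for 14.1% of all tested genes), and stage 8 libraries held 532, 232 and 143 FPKM. Copies of the 5S gene are near identical and cannot be told apart by their reads, so these calls amount to a single measurement. The scaffold noncoding genes took 31.4%, 28.5% and 27.9% of the summed FPKM in EcRts libraries, against 9.52%, 9.80% and 11.2% in wild-type stage 10 libraries, and 21.8%, 21.7% and 17.6% at stage 8. This difference of 19.1 percentage points had p = 0.1 in an exact two-sided permutation test, the smallest that 3 against 3 libraries allow (adjusted p = 0.114 over 8 classes). Of the 147 genes of this class 16 have no estimate in 1 or more libraries, where they are listed at 0. Several of them are at 0 in every EcRts library only, such as CR41540, with 4308, 4326 and 4911 FPKM in wild-type stage 10 libraries. No gene of the class was under 0.5 FPKM in every wild-type stage 10 library and at 5 FPKM or more in every EcRts library. In the cell 5S, small nuclear and small nucleolar RNAs carry no poly(A) tail, and how far poly(A) selection or RNA quality differed between groups was not tested. Nuclear protein-coding genes outside the heat shock, eggshell and ribosomal protein lists took 38.9% ± 0.792 of the sum in EcRts, against 47.9% ± 0.535 in wild type (SD, n = 3 each; exact permutation test, p = 0.1). The direction depended on the denominator: with scaffold noncoding RNA left out of the sum, their share was higher in EcRts.

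The deepest falls were in the heat-inducible genes. Of the 29 genes of the heat shock and temperature list 27 were tested, of which 21 were lower and 1 higher (against 33.8% and 9.93% of all genes). Of the 27, 15 met the gene-specific rule as lower, against 2.14% of all genes. The median change was −1.46, against −0.12 over all genes. Between 18 and 20 were lower on the other scales (against 12.6% to 20.9% of all genes), and 20 or 21 when any 1 of the 6 libraries was left out. Hsp70 is the main stress-induced chaperone of the fly and is encoded by 6 near-identical copies, whose reads cannot be assigned to a copy with certainty. Summed over the copies, Hsp70 had 11.4, 15.0 and 13.1 FPKM in EcRts libraries, against 1274, 1399 and 1339 FPKM in wild-type stage 10 libraries and 1080, 624 and 1173 FPKM at stage 8. Wild-type follicles of both stages were thus high, and EcRts follicles alone were low.

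Hsp70Bb (chromosome 3R, 8331515 to 8334105, dm3) had 0.630, 0.845 and 0.718 FPKM in EcRts libraries, against 196, 204 and 209 FPKM in wild-type libraries, a log2 change of −6.88 ± 0.21 (limma, adjusted p = 1.33e-06). The other 3 copies of that cluster, Hsp70Ba, Hsp70Bbb and Hsp70Bc, changed by −6.61 to −6.79, and the separate pair Hsp70Aa and Hsp70Ab by −5.61 and −5.62. The alphagamma-element, a heat-induced noncoding RNA that lies within the Hsp70B cluster at 8301058 to 8303989, had 0.395, 0.201 and 0.460 FPKM in EcRts libraries, against 90.3, 99.9 and 116 FPKM in wild-type libraries (−6.25 ± 0.23, limma, adjusted p = 2.88e-06). Hsp68, a relative of Hsp70 elsewhere on the arm (19880802 to 19883029), had 1.76, 2.76 and 2.62 FPKM in EcRts libraries, against 319, 368 and 321 FPKM in wild-type libraries (−6.65 ± 0.26). The nuclear noncoding RNA Hsromega, another classic heat shock transcript, had 29.05, 33.3 and 33.3 FPKM in EcRts libraries, against 133, 122 and 149 FPKM in wild-type libraries (−2.04 ± 0.21, limma, adjusted p = 3.27e-04). No value of these genes overlapped between the groups, as was so in the same direction for 43.2% of all tested genes.

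Small heat shock proteins, which hold unfolded proteins for refolding, fell by unequal amounts. Hsp67Bc had 0.216, 0.296 and 0.236 FPKM in EcRts libraries, against 41.6, 45.0 and 37.3 FPKM in wild-type libraries (−5.08 ± 0.24, limma, adjusted p = 8.2e-06). It was the only protein-coding gene under 0.5 FPKM in every EcRts library and at 5 FPKM or more in every wild-type stage 10 library. Hsp22, a mitochondrial member, had 10.2, 10.2 and 10.76 FPKM in EcRts libraries, against 296, 355 and 292 FPKM in wild-type libraries (−4.79 ± 0.38). Hsp23 changed by −1.86, Hsp26 by −1.22 and Hsp27 by −0.92. Hsp26 was still at 1022 to 1136 FPKM in EcRts libraries, against 2391 to 2743 FPKM in wild-type libraries. The 3 wild-type stage 8 libraries held 812 to 1390 FPKM of Hsp26, which spans the EcRts values, whereas for Hsp22 they held 73.5 to 267 FPKM, all above EcRts.

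Among co-chaperones, stv (starvin), a BAG-domain partner of Hsp70, had 1.58, 1.13 and 1.58 FPKM in EcRts libraries, against 25.3, 29.7 and 25.2 FPKM in wild-type libraries (−3.51 ± 0.10), and DnaJ-1, an Hsp40, had 137 to 139 FPKM in EcRts libraries, against 354 to 417 FPKM in wild-type libraries (−1.46 ± 0.17). Constitutive chaperones had smaller differences. Hsp83, the fly Hsp90, was lower by 0.51 on the log2 scale (adjusted p = 0.0103), but in limma not with protein-coding scaling (adjusted p = 0.0578; 0.00182 to 0.0578 over all alternatives). Hsp60 of mitochondria was the 1 member called higher (0.27, limma, adjusted p = 0.0212), a call that ended without EcRts replicate 2 or 3 or wild-type replicate 3 (adjusted p = 0.0624 to 0.0708). Hsc70-4, the constitutive cytosolic Hsp70, had 2506, 2669 and 2584 FPKM in EcRts libraries, against 2510, 2453 and 2323 FPKM in wild-type libraries (adjusted p = 0.242; called higher with protein-coding scaling). Hsf, the transcription factor of the heat shock response, had 56.2 to 57.9 FPKM in EcRts libraries, against 62.3 to 66.8 FPKM in wild-type libraries (−0.17, limma, adjusted p = 0.0101), a difference close to the median of all genes that was not called with protein-coding scaling (adjusted p = 0.67).

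**Figure D2:**
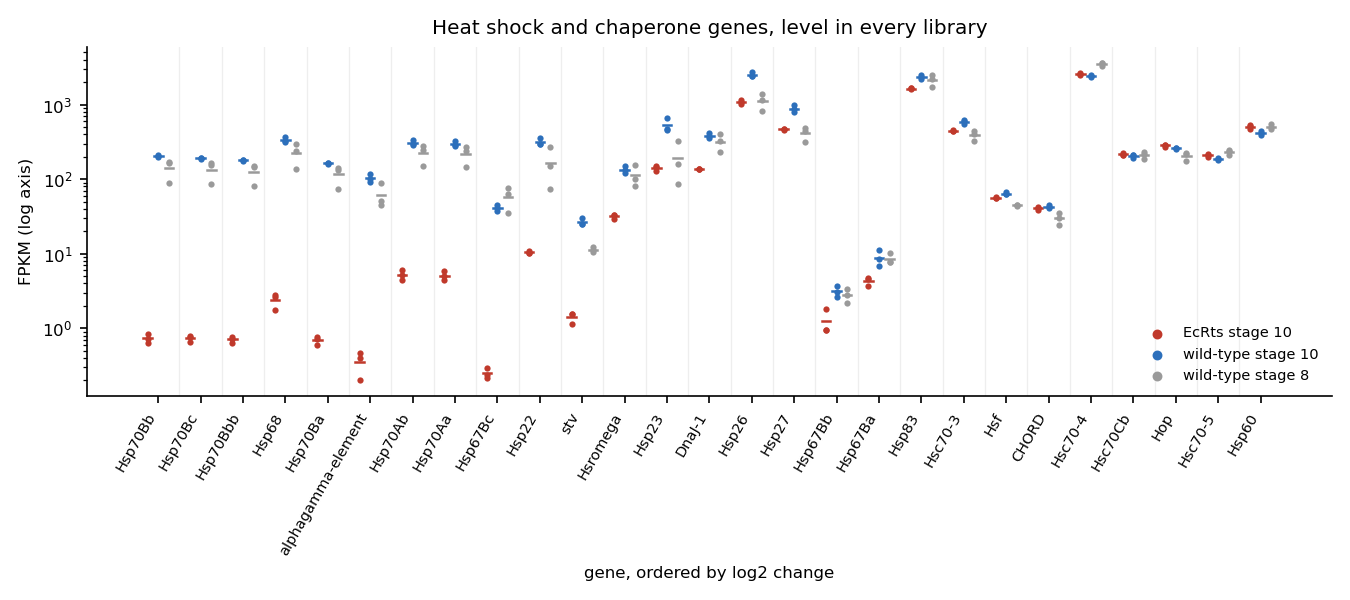
FPKM on a log axis of the 27 tested genes of the heat shock and temperature list in every library (points) with group means (bars), for EcRts stage 10, wild-type stage 10 and wild-type stage 8, ordered by log2 change. Hsp70, Hsp68, Hsp67Bc and Hsp22 on the left stand at 10.76 FPKM or below in EcRts, while constitutive chaperones on the right lie together.

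Chorion genes, which code for the outer eggshell, were the main developmental group with gene-specific falls. Of the 15 genes of the chorion and late eggshell list 14 were tested, of which 10 were lower and 0 higher (against 33.8% and 9.93% of all genes), 9 of them gene-specific falls (against 2.14%), with a median change of −1.54. On the other scales 9 or 10 were lower, against 12.6% to 20.9% of all genes. When 1 library was left out 6 to 8 were lower, the lowest count being that without EcRts replicate 3, with medians between −1.66 and −1.37. In shares of the summed FPKM the list took 0.546%, 0.738% and 0.540% in EcRts libraries, against 1.82%, 1.88% and 1.79% in wild-type libraries (exact permutation test, p = 0.1), and 0.174% to 0.251% at stage 8.

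Cp38 (chromosome X, 8375870 to 8377344, dm3), one of the abundant early chorion genes, had 1301, 2224 and 1232 FPKM in EcRts libraries, against 5117, 4249 and 4507 FPKM in wild-type libraries (−1.59 ± 0.30, limma, adjusted p = 0.0043). Its neighbour Cp36 had 1075, 1648 and 1082 FPKM in EcRts libraries, against 3655, 2838 and 3126 FPKM in wild-type libraries (−1.36 ± 0.29). EcRts values of both lay between the wild-type stage 8 values, which reached 978 and 723 FPKM, and the wild-type stage 10 values. Cp7Fc, of the same gene cluster, had 256, 270 and 417 FPKM in EcRts libraries, against 1077, 954 and 1093 FPKM in wild-type libraries (−1.76 ± 0.26), and Cp7Fb changed by −1.50. In this cluster 7 neighbouring genes, from CG33223 to Cp38 (X, 8359723 to 8377918), all met the gene-specific rule as lower, the longest such run in the genome. Outside it, Fcp3C, a follicle cell protein gene, had 172, 115.5 and 173 FPKM in EcRts libraries, against 382, 547 and 445 FPKM in wild-type libraries (−1.58 ± 0.35), and the mucin gene Muc4B changed by −1.78 ± 0.41, with 21.5 to 37.1 FPKM in EcRts libraries, against 171, 70.7 and 93.2 FPKM in wild-type libraries.

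The chorion genes of chromosome 3L, expressed latest, were too variable for most calls. Cp19 had 464, 651 and 494 FPKM in EcRts libraries, against 1744, 2314 and 1392 FPKM in wild-type libraries (−1.74 ± 0.53, limma, adjusted p = 0.03), but the call ended when any 1 library except wild-type replicate 3 was left out (adjusted p = 0.0526 to 0.0902, and 0.00215 to 0.0902 over all alternatives). Cp15, Cp16 and Cp18 had changes of −1.15, −0.93 and −1.63 that did not pass (adjusted p = 0.138, 0.329 and 0.268). Cp18 ranged from 38.2 to 618 FPKM among EcRts libraries and from 290 to 1157 FPKM among wild-type libraries. The limma calls of yellow-g, yellow-g2 and Cp7Fa also depended on single libraries. For yellow-g the adjusted p was 0.0557 to 0.0827 without EcRts replicate 1 or 3 or wild-type replicate 1 or 3. For yellow-g2 it was 0.0533 to 0.0997 without any 1 library except wild-type replicate 2. For Cp7Fa it was 0.0566 or 0.0574 without EcRts replicate 3 or wild-type replicate 2.

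Genes of the vitelline membrane, the inner eggshell layer laid down just before the chorion, gave a single call. Of 14 tested genes 0 were higher and 1, Vm32E, was lower, against 9.93% and 33.8% of all genes, with a median change of −0.08. On the other scales 0 or 1 were higher and 0 to 3 lower, against 19.1% to 26.4% and 12.6% to 20.9% of all genes. Vm26Aa averaged 12628 ± 1515 FPKM in EcRts and 10680 ± 1833 FPKM in wild type, and Vm34Ca 14345 ± 1616 FPKM in EcRts and 15298 ± 2371 FPKM in wild type (SD, n = 3 each), with overlapping libraries. Vm32E averaged 2512 ± 290 FPKM in EcRts and 4324 ± 294 FPKM in wild type (−0.79 ± 0.26, limma, adjusted p = 0.0374), a call that ended without any 1 of the 6 libraries (adjusted p = 0.0549 to 0.102). The yolk protein genes Yp1, Yp2 and Yp3, made by fat body and follicle cells, had changes of 0.02, 0.13 and 0.38, and only Yp3 passed as deposited, while Yp2 was called higher with protein-coding scaling and lower with quantile normalization (adjusted p = 0.0244 for Yp3 in limma; 0.0591 to 0.0766 without EcRts replicate 1 or 2 or wild-type replicate 2 or 3).

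**Figure D3:**
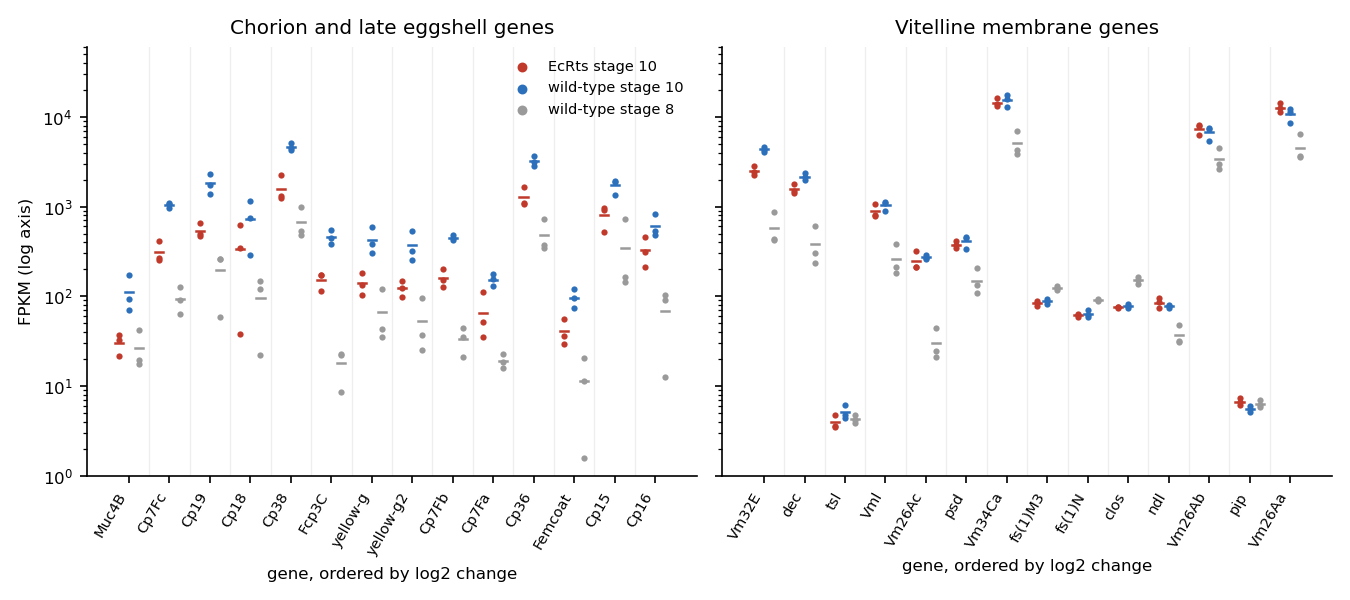
FPKM on a log axis of the tested chorion and late eggshell genes (left) and vitelline membrane genes (right) in every library (points) with group means (bars), for EcRts stage 10, wild-type stage 10 and wild-type stage 8. EcRts values of most chorion genes stand between the wild-type stages, while those of most vitelline membrane genes overlap wild-type stage 10.

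Several other genes, most of them for secreted or membrane proteins, also fell. They were chosen after their values were seen, so their direction says nothing of such proteins as a class. Among 5 tested odorant-binding protein genes, for instance, 3 were lower and 1 higher, against 33.8% and 9.93% of all genes, too few to describe the family. The cadherin gene Cad74A had 12.8, 13.8 and 12.9 FPKM in EcRts libraries, against 46.4, 46.8 and 44.9 FPKM in wild-type libraries (−1.73 ± 0.19, limma, adjusted p = 4.13e-04). The odorant-binding protein gene Obp19c had 153, 165 and 209 FPKM in EcRts libraries, against 512, 465 and 502 FPKM in wild-type libraries (−1.50 ± 0.18), and CG14187 had 175, 117 and 161 FPKM in EcRts libraries, against 316, 410 and 349 FPKM in wild-type libraries (−1.25 ± 0.26). Stage 8 means of these genes were 3.85, 32.1 and 14.4 FPKM, so EcRts follicles stood far above stage 8 and below wild-type stage 10. The scavenger receptor gene emp had 20.9, 15.2 and 21.5 FPKM in EcRts libraries, against 50.7, 54.5 and 53.0 FPKM in wild-type libraries (−1.43 ± 0.18). The integrin subunit gene scb had 7.55, 8.997 and 10.4 FPKM in EcRts libraries, against 22.3, 21.4 and 25.0 FPKM in wild-type libraries (−1.27 ± 0.22). srp, a GATA transcription factor on the hemocyte list, had 6.61, 10.0 and 7.18 FPKM in EcRts libraries, against 22.1, 17.2 and 23.3 FPKM in wild-type libraries (−1.30 ± 0.15, limma, adjusted p = 5.98e-04); it was the 1 of 7 members of that list to be tested, and the hemocyte gene He was at 0 in all 6 libraries.

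CG42704, a small X-linked gene, was among the 10 largest falls by the fitted change but rested on single libraries. It was listed at 0 in all EcRts libraries and at 82.9, 226 and 0.901 FPKM in the wild-type libraries. Its call (adjusted p = 0.026) ended without any 1 of 5 libraries, wild-type replicate 3 being the exception (adjusted p = 0.0618 to 0.0817, and 0.00011 to 0.0817 over all alternatives).

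The ecdysone response list held 0 gene-specific changes. Of 33 genes 23 were tested, of which 5 were higher and 8 lower as deposited, against 9.93% and 33.8% of all genes, with a median change of −0.02. On the other scales 8 to 10 were higher and 4 to 6 lower, against 19.1% to 26.4% and 12.6% to 20.9% of all genes. As deposited the count of higher genes was 1 without EcRts replicate 1 or wild-type replicate 3, 2 without wild-type replicate 1 and 3 without EcRts replicate 2. Eip74EF, an ETS transcription factor and textbook early gene, had 4.94, 4.70 and 5.26 FPKM in EcRts libraries, against 10.4, 11.1 and 12.04 FPKM in wild-type stage 10 libraries (−1.03 ± 0.08, limma, adjusted p = 1.13e-04) and 2.54 to 3.01 FPKM at stage 8. It missed the gene-specific rule because its change was under 2-fold with protein-coding scaling (−0.86). Eip75B, a nuclear receptor and the other best-known early gene, had 15.1, 15.1 and 14.1 FPKM in EcRts libraries, against 13.7, 15.2 and 13.7 FPKM in wild-type libraries (0.05 ± 0.08, adjusted p = 0.615), and the zinc-finger early gene br had 10.2 to 13.0 FPKM in EcRts libraries, against 9.22 to 11.1 FPKM in wild-type libraries (0.18 ± 0.11, adjusted p = 0.203; limma in both cases).

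ImpL2, a secreted insulin-binding protein first found as ecdysone-inducible, had 45.7, 40.4 and 44.9 FPKM in EcRts libraries, against 89.3, 94.5 and 75.3 FPKM in wild-type libraries (−0.96 ± 0.13, limma, adjusted p = 0.00102). Eip93F, a factor of steroid-triggered cell death, had 0.783 to 1.06 FPKM in EcRts libraries, against 2.13 to 2.81 FPKM in wild-type libraries (−0.87 ± 0.13). Cyp18a1, which inactivates the hormone, had 10.4 to 11.7 FPKM in EcRts libraries, against 16.1 to 17.5 FPKM in wild-type libraries (−0.57 ± 0.13, limma, adjusted p = 0.00878), not called with protein-coding scaling (adjusted p = 0.0504). The competence factor ftz-f1 (−0.24) and the receptor gene Hr78 (−0.21) were lower as deposited only, and with protein-coding scaling had changes of −0.05 and −0.02 (adjusted p = 0.598 and 0.785). The coactivator tai (taiman) changed by −0.32 as deposited (adjusted p = 0.00537), and its value was −0.14 with protein-coding scaling (adjusted p = 0.152).

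Of the genes called higher, Hr4, a nuclear receptor that represses early genes, had 5.03, 4.06 and 4.45 FPKM in EcRts libraries, against 2.13, 2.37 and 1.88 FPKM in wild-type libraries (0.82 ± 0.15, limma, adjusted p = 0.00409). Hr46 changed by 0.60 (adjusted p = 0.0214), but its call ended without EcRts replicate 1 or 2 or wild-type replicate 2 or 3 (adjusted p = 0.0520 to 0.0670, and 0.00371 to 0.0670 over all alternatives). The corepressor gene Smr changed by 0.36 (adjusted p = 0.0204; 0.0582 to 0.0653 without EcRts replicate 1 or wild-type replicate 1 or 3). The partner gene usp had 59.2, 60.2 and 54.8 FPKM in EcRts libraries, against 50.7, 54.1 and 46.2 FPKM in wild-type libraries (0.20 ± 0.06, limma, adjusted p = 0.0292), a call that ended without EcRts replicate 1 or 2 or wild-type replicate 1 or 3 (adjusted p = 0.0645 to 0.0924).

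Of the 15 tested genes of ecdysteroid synthesis 2 were higher and 6 lower as deposited, against 9.93% and 33.8% of all genes. On each other scale 2 were higher and 2 lower, against 19.1% to 26.4% and 12.6% to 20.9% of all genes. The P450 gene dib (disembodied) had 0.794, 0.573 and 0.755 FPKM in EcRts libraries, against 3.49, 2.58 and 2.27 FPKM in wild-type libraries and 3.44 to 6.28 FPKM at stage 8 (−1.14 ± 0.20, limma, adjusted p = 0.00284), and it met the gene-specific rule. The P450 gene of the next step, sad (shadow), was higher, with 6.65, 7.10 and 7.23 FPKM in EcRts libraries, against 5.49, 4.53 and 4.80 FPKM in wild-type libraries (0.43 ± 0.07). The cholesterol transfer gene Start1 had 22.5 to 23.3 FPKM in EcRts libraries, against 30.03 to 32.6 FPKM in wild-type libraries (−0.42 ± 0.04), and the zinc-finger gene woc had 75.1 to 80.1 FPKM in EcRts libraries, against 58.5 to 68.8 FPKM in wild-type libraries (0.31 ± 0.06). For the other hormone of oogenesis, the juvenile hormone list had 1 of 7 tested genes higher and 2 lower, against 9.93% and 33.8%. CG10407, now named Jhbp5 for its likeness to juvenile hormone binding proteins, had 184, 143 and 200 FPKM in EcRts libraries, against 440, 547 and 518 FPKM in wild-type libraries (−1.52 ± 0.17, limma, adjusted p = 4.33e-04), and the epoxide hydrolase gene Jheh3 was higher by 0.59 ± 0.06.

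**Figure D4:**
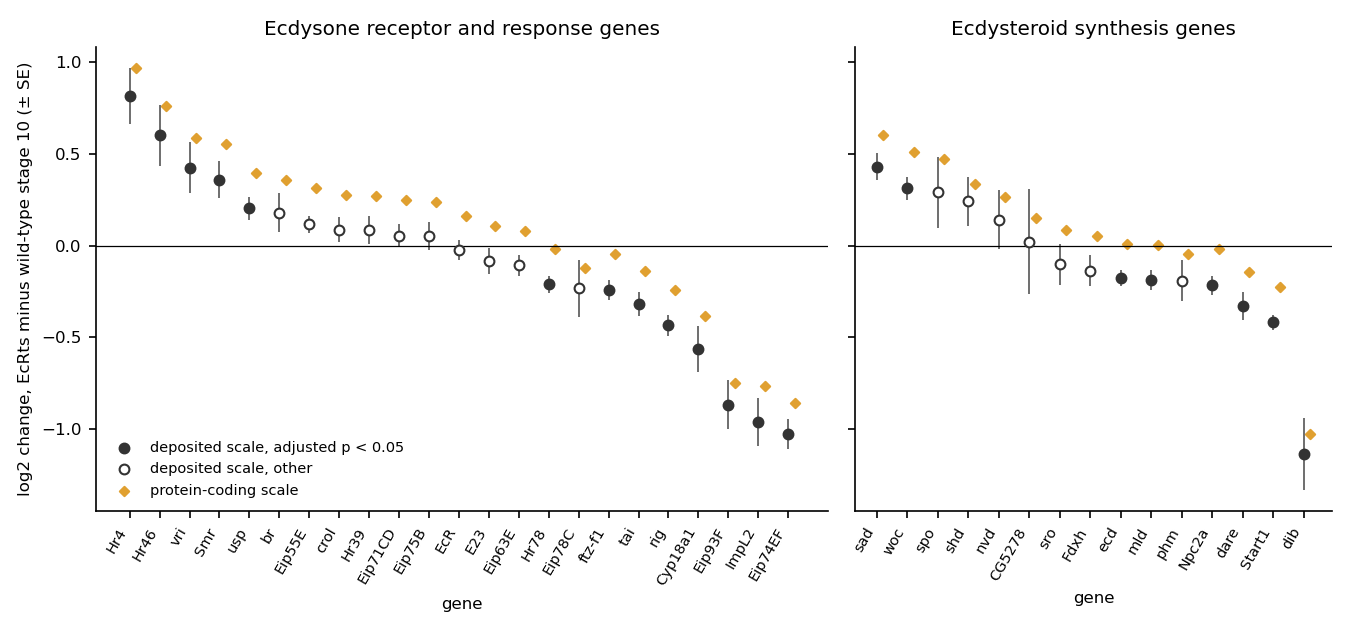
Log2 change (EcRts minus wild-type stage 10, circles, with SE bars from limma) of the 23 tested ecdysone receptor and response genes and the 15 tested ecdysteroid synthesis genes on the deposited scale, filled where the adjusted p is under 0.05, with the protein-coding scale as diamonds. The change of EcR itself, −0.025, lies close to 0, and Eip74EF and dib are the lowest of their lists.

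In lipid synthesis, 14 of 26 tested genes were lower and 3 higher as deposited (median −0.18), against 33.8% and 9.93% of all genes. With protein-coding scaling 8 were lower and 7 higher, against 12.6% and 26.4% of all genes. Without EcRts replicate 3, 9 were lower as deposited. AcCoAS, the acetyl-CoA synthetase gene (chromosome 3L, 21263822 to 21273343, dm3), had 14.5, 14.0 and 15.1 FPKM in EcRts libraries, against 46.5, 49.3 and 45.5 FPKM in wild-type libraries and 51.5 to 54.8 FPKM at stage 8 (−1.63 ± 0.05, limma, adjusted p = 1.33e-06); it was the 1 member that met the gene-specific rule. Smaller falls that kept their call in every alternative were those of CG3523, a fatty acid synthase (−0.69 ± 0.12), HLH106, the fly SREBP (−0.41 ± 0.05), its escort SCAP (−0.49 ± 0.06) and Lpin, the lipin phosphatase (−0.50 ± 0.08). mdy (midway), which makes triglyceride, was higher, with 28.2, 30.8 and 29.4 FPKM in EcRts libraries, against 21.3 to 23.01 FPKM in wild-type libraries (0.39 ± 0.05, limma, adjusted p = 6.75e-04). The triglyceride lipase gene bmm (brummer) had 21.6 ± 0.817 FPKM in EcRts and 38.2 ± 2.32 FPKM in wild type (SD, n = 3 each; −0.79 ± 0.06).

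In sugar metabolism the trehalose transporter gene Tret1-1 had 6.19, 4.74 and 5.86 FPKM in EcRts libraries, against 14.1, 20.2 and 13.6 FPKM in wild-type libraries (−1.35 ± 0.15, limma, adjusted p = 5.17e-04), and the trehalase gene Treh averaged 37.5 ± 1.04 FPKM in EcRts and 74.5 ± 4.80 FPKM in wild type (−0.97 ± 0.05). Of 13 glycolysis genes 10 were lower and 1 higher as deposited (median −0.31), against 33.8% and 9.93% of all genes. With protein-coding scaling 5 were lower and 2 higher, against 12.6% and 26.4% of all genes. Thor, the translation inhibitor 4E-BP and a target of foxo, had 24.5, 18.3 and 28.3 FPKM in EcRts libraries, against 75.5, 63.5 and 76.3 FPKM in wild-type libraries and 135 to 175 FPKM at stage 8 (−1.58 ± 0.16, limma, adjusted p = 3.28e-04). It was the 1 gene-specific fall among 16 tested insulin and TOR genes. The 1 gene-specific rise there, Ilp8, an insulin-like peptide expressed by maturing follicles, had 19.9, 12.9 and 24.1 FPKM in EcRts libraries, against 6.11, 5.92 and 6.996 FPKM in wild-type libraries (1.40 ± 0.47, limma, adjusted p = 0.0427), and its call ended without any 1 library except EcRts replicate 2 (adjusted p = 0.0798 to 0.123).

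Of 30 tested xenobiotic and oxidative stress genes 6 were higher and 9 lower, against 9.93% and 33.8% of all genes. Of the 30, 4 were gene-specific falls, against 2.14% of all genes. The glutathione transferase genes GstD10 (−1.98), GstD2 (−1.73) and GstE3 (−1.68) fell, the first with 0.311, 0.0458 and 0.437 FPKM in EcRts libraries, against 4.03, 4.65 and 3.24 FPKM in wild-type libraries, while their relatives GstD9 and GstE1 were higher by 0.77 and 0.52. GstD and GstE genes are close tandem copies, so reads may be shared among them. The P450 gene Cyp6a8 was at 0.0178 to 0.294 FPKM in EcRts libraries, against 0.613, 3.29 and 3.45 FPKM in wild-type libraries (adjusted p = 0.0239), a call that ended without EcRts replicate 1 or 3 or wild-type replicate 2 or 3 (adjusted p = 0.0634 to 0.0780), whereas Cyp6a22, described with the rises, was higher.

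Of 28 tested patterning genes of the follicle epithelium 5 were higher and 8 lower as deposited, against 9.93% and 33.8% of all genes. With protein-coding scaling 8 were higher and 6 lower, against 26.4% and 12.6%. Without EcRts replicate 1 or 3 or wild-type replicate 3, 3 were higher as deposited. Fas3, an adhesion protein of the epithelium, had 9.79, 9.48 and 11.3 FPKM in EcRts libraries, against 19.4, 17.2 and 20.03 FPKM in wild-type libraries (−0.83 ± 0.08, limma, adjusted p = 2.65e-04). ct (cut), a homeodomain factor of the mitotic follicle cells, had 1.03 to 1.30 FPKM in EcRts libraries, against 2.69 to 3.20 FPKM in wild-type libraries. aos (argos), an inhibitor of EGF receptor signalling, had 1.02 to 1.54 FPKM in EcRts libraries, against 2.78 to 3.20 FPKM in wild-type libraries. The groups overlapped in neither gene, but EcRts values lay wholly below wild-type values for 43.2% of all tested genes. Sox14, an ecdysone-responsive transcription factor, changed by −0.83 (adjusted p = 0.0168), a call that ended in limma without EcRts replicate 1 or wild-type replicate 3 (adjusted p = 0.0504 and 0.0538). tj (traffic jam), a factor of somatic ovary cells listed here among the germarium markers, was higher, with 50.1, 61.3 and 58.1 FPKM in EcRts libraries, against 46.0, 38.3 and 42.3 FPKM in wild-type libraries (0.41 ± 0.09, limma, adjusted p = 0.00635).

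Among maternal and germline genes 8 of 27 were lower and 3 higher as deposited, against 33.8% and 9.93% of all genes. With protein-coding scaling 2 were lower and 11 higher, against 12.6% and 26.4%. As deposited only 4 were lower without EcRts replicate 2 or 3 or wild-type replicate 2, and 5 without wild-type replicate 1, and 1 was higher without EcRts replicate 2. The piRNA pathway genes AGO3 and spn-E changed by −0.67 ± 0.09 and −0.46 ± 0.05 and kept their calls in every alternative. AGO3 had 57.8, 67.6 and 65.03 FPKM in EcRts libraries, against 94.1, 99.2 and 111 FPKM in wild-type libraries. fs(1)K10, which acts in dorsoventral patterning of the oocyte, was higher, with 26.7, 25.98 and 24.2 FPKM in EcRts libraries, against 18.3, 18.2 and 16.1 FPKM in wild-type libraries (0.52 ± 0.06). Of 21 mitotic genes 11 were lower and 1 higher as deposited, against 33.8% and 9.93% of all genes. With protein-coding scaling 5 were lower and 5 higher, against 12.6% and 26.4%. The spindle checkpoint genes BubR1 (−0.60) and mad2 (−0.60) and the securin gene pim (−0.62) kept their calls in every alternative. Of 18 genes of cell death and autophagy 11 were lower and 2 higher as deposited, against 33.8% and 9.93% of all genes. With protein-coding scaling 4 were lower and 6 higher, against 12.6% and 26.4%. As deposited none was higher without EcRts replicate 3, and 1 without EcRts replicate 1 or 2 or wild-type replicate 2 or 3. The death activator rpr (reaper) had 0.0403, 0.0832 and 0.165 FPKM in EcRts libraries, against 0.997, 0.871 and 1.22 FPKM in wild-type libraries (−0.89 ± 0.15, limma, adjusted p = 0.00263), and the related gene hid, listed as W, 6.53 to 7.39 FPKM in EcRts libraries, against 10.1 to 10.9 FPKM in wild-type libraries (−0.52 ± 0.08).

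Transcripts of the mitochondrial genome were lower. Of 22 tested mitochondrial genes 14 were lower and 2 higher, against 33.8% and 9.93% of all genes. Of them 7 were gene-specific falls, against 2.14% of all genes, and the median change was −1.18. On the other scales 10 or 11 were lower, against 12.6% to 20.9% of all genes. mt:ND2 had 21.9, 22.2 and 21.995 FPKM in EcRts libraries, against 74.6, 73.6 and 64.6 FPKM in wild-type libraries and 17.6 to 24.5 FPKM at stage 8 (−1.64 ± 0.11, limma, adjusted p = 4.53e-05). mt:ND6 had 12.4, 19.1 and 7.26 FPKM in EcRts libraries, against 93.3, 69.4 and 89.3 FPKM in wild-type libraries (−2.69 ± 0.30), and mt:ND4L changed by −1.78. For the abundant mRNAs wild-type replicate 3 stood apart: mt:CoIII had 2228, 2706 and 3437 FPKM in EcRts libraries, against 5036, 4511 and 11643 FPKM in wild-type libraries. The mRNAs together took 0.863% ± 0.147 of the summed FPKM in EcRts and 2.36% ± 1.16 in wild type, where replicate 3 had 3.70% and the other replicates 1.77% and 1.62%. Without that replicate 14 genes were again lower and the median change was −0.72; without EcRts replicate 1 or 2, 9 were lower and 1 higher, and without wild-type replicate 2 also 1 was higher. The transfer RNA mt:tRNA:C was listed at 248, 256 and 610 FPKM in EcRts libraries and at 0 in the 3 wild-type stage 10 libraries, and at 349, 0 and 386 FPKM at stage 8. Genes this short can reach such values in 1 library and be at 0 in all others. For mt:tRNA:I it was wild-type stage 10 replicate 2 (282 FPKM), and for mt:tRNA:P EcRts replicate 3 (469 FPKM). Whether the greater depth of the EcRts libraries made mt:tRNA:C detectable there was not tested.

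Gene-specific rises of protein-coding genes were fewer than the falls. The largest was CG4476 (chromosome 3L, 9204980 to 9208356, dm3), with 52.4, 48.4 and 49.5 FPKM in EcRts libraries, against 1.95, 2.72 and 2.78 FPKM in wild-type libraries (3.88 ± 0.18, limma, adjusted p = 8.2e-06). Oat, ornithine aminotransferase of amino acid catabolism, had 23.4, 19.3 and 21.7 FPKM in EcRts libraries, against 2.17, 1.51 and 2.03 FPKM in wild-type libraries (2.96 ± 0.11, limma, adjusted p = 2.88e-06). CG11034 had 8.94, 7.004 and 7.84 FPKM in EcRts libraries, against 0.235, 0.219 and 0.271 FPKM in wild-type libraries (2.84 ± 0.12), and was the only protein-coding gene at 5 FPKM or more in every EcRts library and under 0.5 FPKM in every wild-type stage 10 library. Stage 8 levels were also low, with a mean of 2.93 FPKM for CG4476, 3.41 to 4.06 FPKM for Oat and a mean of 0.155 FPKM for CG11034, so of the 3 groups EcRts follicles alone held such levels.

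The other rises among the 10 largest were Obp46a (2.78), CG6891 (2.59), Arc1 (2.50), CG42565 (2.08), Cyp6a22 (1.85), TepII (1.81) and Unc-115a (1.76). Arc1, which forms virus-like capsids that carry RNA, was uneven, with 38.6, 12.6 and 21.6 FPKM in EcRts libraries, against 3.11, 2.84 and 3.20 FPKM in wild-type libraries. The P450 gene Cyp6a22 had 35.8, 28.9 and 29.8 FPKM in EcRts libraries, against 7.53, 8.90 and 7.59 FPKM in wild-type libraries, and with its neighbour Cyp6a17 it formed the only adjacent pair of rises. TepII, a thioester protein of the immune system, had 10.2, 6.03 and 6.91 FPKM in EcRts libraries, against 1.47, 1.33 and 1.53 FPKM in wild-type libraries. Unc-115a, an actin-binding LIM protein gene, had 15.2, 14.2 and 13.6 FPKM in EcRts libraries, against 3.59, 3.99 and 3.03 FPKM in wild-type libraries, and its paralog Unc-115b changed by 1.56, a pair of near copies whose reads may be shared. CG13636 (sosie), needed for an ordered follicle epithelium and chosen here after its values were seen, had 9.22, 4.54 and 7.41 FPKM in EcRts libraries, against 2.51, 2.61 and 1.13 FPKM in wild-type stage 10 libraries (1.38 ± 0.28, limma, adjusted p = 0.00616), while stage 8 averaged 30.5 FPKM.

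Immune peptide genes were high mainly in EcRts replicate 1. CecA1, an antibacterial peptide gene, had 8.08, 2.42 and 2.16 FPKM in EcRts libraries, against 0, 0.312 and 0 FPKM in wild-type libraries (2.07 ± 0.43, limma, adjusted p = 0.00614), and Dro had 69.8, 3.91 and 7.71 FPKM in EcRts libraries, against 2.23, 1.799 and 1.15 FPKM in wild-type libraries (2.43 ± 0.88, adjusted p = 0.054 in limma). Of the 10 tested members of that list 2 were higher and 1 lower, against 9.93% and 33.8% of all genes. The other rise, of the recognition protein gene PGRP-SB1 (1.16), ended in limma without any 1 wild-type replicate (adjusted p = 0.0587 to 0.0880), and the fall of PGRP-LB (−0.51) without any 1 library except EcRts replicate 2 (adjusted p = 0.0752 to 0.121). Genes of muscle, which sheathes the ovariole, were low in all libraries. Of 10 members 6 were tested and 4 called higher (1 without EcRts replicate 2, 2 without EcRts replicate 1 or wild-type replicate 2), against 9.93% of all genes. The summed level of the tested members was 19.96 to 26.4 FPKM in EcRts libraries and 11.4 to 14.9 FPKM in wild-type libraries. Mlc2, a myosin light chain, had 1.84, 1.67 and 1.48 FPKM in EcRts libraries, against 0.612, 0.628 and 0.793 FPKM in wild-type libraries (0.67 ± 0.18, adjusted p = 0.0176), a call that ended in limma without EcRts replicate 1 or wild-type replicate 1 (adjusted p = 0.0542 and 0.0522). The part of muscle in other rises was not tested. None of the 6 neuron or 3 oviduct and stalk genes passed the filter on low values, and of 8 fat body genes 3 were tested, with sums of 46.5 to 53.7 FPKM in EcRts libraries and 53.1 to 69.9 FPKM in wild-type libraries. Of 8 germline markers 1 was higher and 2 lower, and of 8 follicle epithelium markers 0 and 2, against 9.93% and 33.8% of all genes. The medians were 0.05 and −0.04. When any 1 library was left out, 0 or 1 of the germline markers and 1 of the epithelium markers were lower. Without EcRts replicate 2 no germline marker was higher.

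Replication-dependent histones, whose mRNAs end in a stem-loop in place of a poly(A) tail, split by type. All 23 tested H2B copies were higher (median 0.99) and all 20 H2A copies lower (median −0.50), and both counts held on the other 3 scales and when any 1 library was left out, while 0 of 23 H1 and 0 of 22 H4 copies were called. The H2B copies summed to 158, 192 and 213 FPKM in EcRts libraries, against 78.9, 73.4 and 84.6 FPKM in wild-type libraries, and the H2A copies to 1005, 907 and 941 FPKM in EcRts libraries, against 1275, 1393 and 1395 FPKM in wild-type libraries. Copies within a type are near identical, so each type is a single measurement, and the 23 H3 copies are listed at 0 in all libraries.

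Genes were also described by position, a grouping chosen after the values were seen. On heterochromatic or unplaced scaffolds 32 of 39 tested genes (82.1%) were lower, 1 was higher and 7 were gene-specific falls. Over all 7583 nuclear protein-coding genes 35.6% were lower, 621 genes were higher and 2.06% were gene-specific falls. The median change was −0.48 on the scaffolds and −0.13 over all such genes, and on the protein-coding scale −0.28 and 0.06. The scaffold count of lower genes stayed at 23 to 28 on the other scales, where 990 to 1662 of all 7583 genes were lower. It was 29 to 31 when 1 library was left out. Parp, the poly(ADP-ribose) polymerase (3RHet, 1935205 to 2026815, dm3), had 23.9, 26.1 and 28.2 FPKM in EcRts libraries, against 81.0, 79.4 and 95.0 FPKM in wild-type libraries and 50.0 to 62.9 FPKM at stage 8 (−1.67 ± 0.10, limma, adjusted p = 3.29e-05). CG40472 had 74.6, 99.7 and 82.1 FPKM in EcRts libraries, against 246, 223 and 272 FPKM in wild-type libraries (−1.53 ± 0.11). Smaller falls included the MAP kinase gene rl (−0.59), the RNA helicase gene Dbp80 (−1.12), the cohesin subunit gene vtd (−0.51) and the ribosomal protein gene RpL15 (−0.29). RpL15 changed by only −0.096 with protein-coding scaling and was called in 15 of the 18 alternatives (adjusted p up to 0.252 in limma). On chromosome 4, also rich in repeats, 36 of 54 genes were lower and 5 higher (median −0.26), and the scaling moved the count lower to between 14 and 21. Within 1 Mb of the centromeric end of the 5 large arms 56 of 114 genes were lower and 7 higher, with a median of −0.17, against −0.12 for the remainder of the arms. The arms were unequal there. On 2R 14 of 14 genes were lower (median −0.45), on 3L 5 of 7 (−0.40) and on 2L 11 of 17 (−0.24). On 3R 21 of 55 (−0.12) and on X 5 of 21 (−0.16) were lower. With protein-coding scaling the medians were −0.25, −0.23 and −0.04 on 2R, 3L and 2L and 0.07 and 0.03 on 3R and X. Of 92 genes within 1 Mb of EcR 40 were lower and 7 higher, with 4 gene-specific falls, among them Cyp6w1, and 1 gene-specific rise. Over all nuclear protein-coding genes such falls made up 2.06% and such rises 0.738%. The rise near EcR was CG30438, which averaged 4.84 FPKM in EcRts and 0.896 FPKM in wild type (1.61, limma, adjusted p = 4.93e-04).

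**Figure D5:**
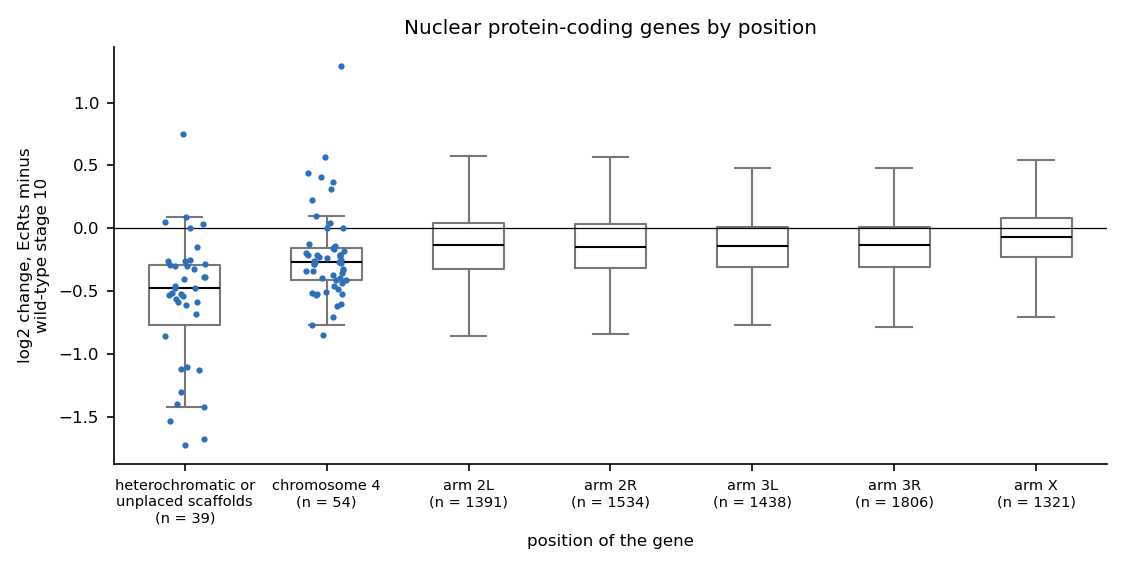
Log2 change (EcRts minus wild-type stage 10, deposited scale) of nuclear protein-coding genes by position, as boxes (median and quartiles, whiskers to 1.5 interquartile ranges), with each gene as a point for the scaffolds and chromosome 4. The box of the heterochromatic or unplaced scaffolds, median −0.48, lies below those of the arms, whose medians are −0.15 to −0.07.

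Of 149 gene-specific falls on the arms and chromosome 4, 35 (23.5%) lay in 13 runs of neighbouring protein-coding genes, and 6 of the 35 are Hsp70 copies that share reads. Of the 56 rises 2 (3.57%) did. With fewer rises than falls to meet as neighbours, these shares cannot be set against each other. After the chorion run the longest were the 4 Hsp70B copies and a group of 4 from CG13806 to yellow-g on 3L (2266394 to 2272769), which holds the chitin-binding gene obst-I.

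In other large groups the counts depended on the scale, and in some the direction turned. For comparison, 33.8% of all tested genes were lower and 9.93% higher as deposited, and 12.6% and 26.4% with protein-coding scaling. Of 87 tested ribosomal protein genes 31 were lower and 1 higher as deposited, 2 and 5 with median-of-ratios scaling, 34 and 2 with quantile normalization, and 2 and 31 with protein-coding scaling. As deposited 19 were lower without EcRts replicate 1 or wild-type replicate 1, and 20 without wild-type replicate 3. The 1 higher gene lost its call without EcRts replicate 2 or 3 or wild-type replicate 2 or 3. As a share of the summed FPKM they took 20.7% ± 0.824 in EcRts and 26.1% ± 0.941 in wild type, but of the sum over protein-coding genes the difference was only 0.418 percentage points, with EcRts higher (exact permutation test, p = 0.6). Of 33 respiratory chain genes 6 were lower and 0 higher as deposited, and 0 and 14 with protein-coding scaling. As deposited 3 were lower without EcRts replicate 1 or 3 or wild-type replicate 1. Of 34 proteasome genes 16 were lower as deposited and 1 with protein-coding scaling, with 0 higher on any of the 4 scales. As deposited, 8 were lower without wild-type replicate 1, 9 without EcRts replicate 3 and 10 without EcRts replicate 1 or wild-type replicate 2. In DNA replication and the endocycle 20 of 32 genes were lower and 0 higher, and 8 and 4 with protein-coding scaling, so that lower genes outnumbered higher ones on both. RnrL, which makes deoxynucleotides, averaged 104 ± 6.73 FPKM in EcRts and 160 ± 2.80 FPKM in wild type (−0.62 ± 0.07, limma, adjusted p = 0.00036) and kept its call in every alternative, as did Orc2 (−0.61) and Psf1 (−0.66). None of these groups held a gene-specific change. Neither did the TCA cycle, where Idh fell by 0.51 and kdn, citrate synthase, rose by 0.45, nor ribosome biogenesis, where 5 of 27 genes were higher and 3 lower as deposited (1 to 5 and 1 to 3 when 1 library was left out) and 13 and 0 with protein-coding scaling, nor actin and nurse cell dumping, where 12 of 18 genes were lower as deposited and 1 with protein-coding scaling. Among translation factors 7 of 20 were lower and 0 higher as deposited, against 33.8% and 9.93% of all genes, and 2 and 11 with protein-coding scaling. As deposited 4 were lower without EcRts replicate 1 or wild-type replicate 1. The most abundant messenger RNA of both groups, RpL41, had 16249, 17828 and 18414 FPKM in EcRts libraries, against 25247, 23156 and 25781 FPKM in wild-type libraries (−0.50 ± 0.09, limma, adjusted p = 0.0036). With no filter on low values its adjusted p in limma was 0.414, the highest of all alternatives. Its groups did not overlap, as was so in the same direction for 43.2% of all tested genes.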

How the data were processed

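Poly(A) RNA of 9 Drosophila follicle samples was sequenced, 3 per group. The deposited FPKM values, 1 table per library with confidence limits and a status flag, came from TopHat2 2.0.7, Bowtie2 2.0.6 and Cufflinks 2.02 with CASAVA 1.8.2 base calls on dm3, per the submitters' processing notes; how FPKM was scaled between libraries is not stated there. FPKM holds no read counts, and implied counts were whole (within 0.02) for only 56.6 to 60.6% of low values, so no count model was used; depth was inferred from the confidence limits.

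Genes were joined on the deposited identifiers (15602), and 14926 identifiers matched a current symbol. Those at 1 FPKM or more in 3 or more libraries passed (8357), and 119 with a failed or overloaded estimate in any library were left out, so 8238 were tested. limma 3.58.1 (R 4.3.3) was fitted to log2(FPKM + 1) over all 9 libraries with 1 mean per group and a mean-variance trend; p-values were adjusted by Benjamini-Hochberg over all tested genes, and called at 0.05. Fold changes on this scale understate those of low genes. SE is limma's. Leave-one-out fits keep the other groups' spread. Shares of summed FPKM were compared by exact two-sided permutation tests. The fit was also run on data simulated from the group means with known changes.

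Gene-specific calls needed 2-fold or more on 4 scales. Genes named by rule were EcR and usp, and the 10 largest gene-specific protein-coding rises and falls at 5 FPKM or more. They also included up to 4 of the largest called changes per list and any member whose direction flipped with the scale. Genes under 0.5 FPKM in one group and at 5 or more in the other were named too, as were the 5 most abundant per group. Other genes, among them Hsp23, Hsc70-4, Eip75B and br, fall outside this rule, and not all are marked where they appear. The members and the 37 gene lists (754 members matched, 42 names not) were chosen with earlier results of these data known. Replicate numbers did not pair samples.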

Additional observations from a re-analysis of the deposited data

How the results depend on the processing

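Direction and call held in most alternatives: of the 139 named genes 132 were called, 83 of them in the same direction in every alternative. The scale decided the balance of calls. Higher and lower genes numbered 1609 and 1538 with median-of-ratios scaling, 1575 and 1718 with quantile normalization, 2178 and 1042 with protein-coding scaling and 1685 and 1169 with scaling to other genes. Gene-specific calls numbered 213 (126 higher, 87 lower) with a pseudocount of 5, 719 (343 and 376) at 1.5-fold, 83 (59 and 24) at 4-fold, and 212 (56 higher) among nuclear protein-coding genes. Leaving out 1 library gave 2813 to 3065 calls, 564 to 793 higher and 2188 to 2501 lower, and 339 to 401 gene-specific calls, 199 to 223 higher and 139 to 179 lower. The replicate numbers did not pair samples (correlations of same-numbered deviations 0.06, −0.04 and 0.18); with a replicate block 3291 genes were called (742 higher, 2549 lower).

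Share differences, EcRts minus wild type in percentage points, moved with the denominator. Without scaffold noncoding RNA they were 0.163 for ribosomal proteins, −0.540 for heat shock, 0.608 for vitelline membrane, 1.62 for other protein-coding genes and 1.29 for small RNAs. Over protein-coding genes they were 0.418, −0.538, 0.685 and 2.17 for the first 4, and with failed estimates left out −1.31 for chorion. Leaving out 1 library gave 18.0 to 19.8 for scaffold noncoding RNA, −5.96 to −4.95 for ribosomal proteins, −0.731 to −0.653 for heat shock, −1.28 to −1.19 for chorion, −0.946 to −0.289 for vitelline membrane, −1.87 to −0.831 for mitochondrial mRNAs, −9.41 to −8.63 for other protein-coding genes and 0.389 to 0.739 for small RNAs. The cause was not tested.

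Of all tested genes 3 were called in opposite directions on different scales, RpLP1, Yp2 and CG16817. In limma RpLP1 was −0.28 with quantile normalization (adjusted p = 0.0464) and 0.14 with protein-coding scaling (0.0496), Yp2 −0.62 (0.0259) and 0.33 (0.0468), and CG16817 0.14 with quantile normalization (0.0141) and −0.14 as deposited (0.0428). Other signs also reversed. With median-of-ratios, protein-coding and other-gene scaling they became 0.095, 0.16 and 0.13 for EcR, 0.071, 0.14 and 0.11 for RpLP1, and 0.039, 0.11 and 0.077 for Vm34Ca. With protein-coding and other-gene scaling they became 0.060 and 0.027 for BicD and 0.052 and 0.018 for Ef1alpha48D. With quantile normalization they became 0.085 for EcR, 0.0069 for BicD, −0.64 for Vm26Aa, −0.78 for Vm26Ab (adjusted p = 0.0438 in limma). Leaving out 1 library gave −0.053 to 0.026 for EcR, −0.0069 to 0.26 for Vm26Ab and −0.21 to 0.015 for Vm34Ca.

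With 3 libraries a group, a change of a low or variable gene such as Cp18 or Dro could not be told from the spread, and FPKM of genes with near-identical copies is uncertain.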
